A study of Mus musculus with 12 samples.

Results

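Genes for lysosomal enzymes, lysosomal membrane proteins, the vacuolar ATPase and the TFEB family of transcription factors were read out in mouse macrophages, as 43 of the 47937 genes counted. They were taken by name: 9 cathepsins and legumain, 12 hydrolases and their activators, 6 membrane proteins and progranulin, 13 subunits and accessory proteins of the proton pump, and 3 transcription factors. Macrophages had been grown with CSF-1 from the bone marrow of C57BL/6 mice, and each group held 3 libraries. Resting macrophages (M0) received no stimulus, and inflammatory macrophages received IFNγ (50 ng/ml) together with LPS (20 ng/ml). Each state was also cultured with DGAT1i, the compound T863 at 50 µM, which inhibits the last enzyme of triglyceride synthesis, DGAT1. The labels give 18 h for every group but M0, and they do not name a vehicle for the groups without DGAT1i. The study used the inhibitor to ask what triglyceride synthesis does in inflammatory macrophages, and the comparisons here ask how the lysosomal genes moved with activation and with DGAT1i in each state. The sources call the 3 samples of a group independent without saying how the cultures or animals were split, so p-values measure the spread between these samples.

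The lysosome breaks down proteins, lipids and glycans with acid hydrolases, most of which reach it through mannose 6-phosphate receptors. The vacuolar ATPase acidifies it: the V1 sector in the cytosol splits ATP, and the V0 sector in the membrane carries the protons. TFEB, TFE3 and MITF are kept in the cytosol by mTORC1 signalling at the lysosome and, once in the nucleus, bind E-boxes in the promoters of many lysosomal genes. In macrophages these enzymes digest engulfed material and trim antigens for presentation.

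Libraries held 4996014 to 6621671 reads, and 1 CPM (the unit of level used below, reads scaled to the library size with TMM factors) was worth 4.28 to 7.58 reads. All 43 genes passed the filter on low counts, with 216 reads or more in every library. The macrophage list was present, 9 of 9 genes at 49.3 CPM or more, and the summed level of 8 genes of the IFNγ and LPS response was 2.70 to 6.82 CPM in the groups without the stimulus and was 26707 to 28405 CPM after IFNγ + LPS and 22953 to 23793 CPM after IFNγ + LPS with DGAT1i. The macrophage list summed to 13283 to 14518 CPM in M0, 16235 to 18258 CPM in M0 with DGAT1i, 8381 to 9030 CPM after IFNγ + LPS and 7979 to 8945 CPM after IFNγ + LPS with DGAT1i. Of the 9 neutrophil genes, Ly6g and Retnlg had 0 reads. The neutrophil list summed to 31.6 to 38.7 CPM in M0, 15.2 to 25.5 after IFNγ + LPS, 22.9 to 29.0 in M0 with DGAT1i, and 63.0 to 81.0 after IFNγ + LPS with DGAT1i. In bulk RNA, a change in the number of cells of a type and a change in RNA per cell cannot be told apart.

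The E-box of the TFEB family is shown in the promoters of 4 of these genes, chosen because the stretch lies wholly before the annotated gene and holds the motif in a membrane protein, a channel, a pump subunit and an enzyme. The capitals mark the hexamer CACGTG, which reads the same on both strands. Sequences are from RefSeq on GRCm38.p6, written 5′ to 3′ on the strand of the gene, and run from 250 bases before the RefSeq start to that start or to the GENCODE start, whichever comes first. Lamp1 lies at chr8:13158911-13159160, plus strand; Mcoln1 at chr8:3500269-3500456, plus strand; Atp6v0b at chr4:117887334-117887579, minus strand; and Glb1 at chr9:114400828-114401075, plus strand.
Lamp1: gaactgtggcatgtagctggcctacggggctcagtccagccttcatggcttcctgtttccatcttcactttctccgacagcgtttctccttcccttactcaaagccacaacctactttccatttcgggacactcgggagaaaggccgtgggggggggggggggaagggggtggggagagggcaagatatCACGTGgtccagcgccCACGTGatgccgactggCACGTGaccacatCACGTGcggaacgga
Mcoln1: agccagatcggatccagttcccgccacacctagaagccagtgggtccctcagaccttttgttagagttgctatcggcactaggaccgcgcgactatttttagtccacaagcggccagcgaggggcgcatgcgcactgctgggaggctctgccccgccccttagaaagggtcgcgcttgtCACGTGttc
Atp6v0b: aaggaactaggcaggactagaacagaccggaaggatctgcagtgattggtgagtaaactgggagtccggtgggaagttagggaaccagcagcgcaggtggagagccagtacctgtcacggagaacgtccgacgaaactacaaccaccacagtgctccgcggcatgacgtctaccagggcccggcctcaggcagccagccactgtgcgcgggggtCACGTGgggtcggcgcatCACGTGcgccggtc
Glb1: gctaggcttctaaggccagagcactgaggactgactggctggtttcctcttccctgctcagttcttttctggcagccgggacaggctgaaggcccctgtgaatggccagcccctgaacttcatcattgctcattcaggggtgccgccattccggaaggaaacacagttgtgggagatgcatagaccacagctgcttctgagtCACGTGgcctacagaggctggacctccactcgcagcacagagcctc

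Lamp1 had 4 copies of the hexamer, Atp6v0b 2, and Glb1 1, while of the 2 copies of Mcoln1 in its RefSeq window 1 fell within the stretch shown. Windows of 300 bases around the RefSeq start were held for 37 of the 43 genes, all but Ctsb, Ctsh, Atp6v0d2, Atp6v1b2, Atp6v1c1 and Atp6v1h. CACGTG was in 12 of these 37 windows (32.4%), against 8.09% of the 27025 genes with such a window. The 12 were Atp6v0b, Atp6v0d1, Atp6v1a, Ctsa, Ctsd, Ctsl, Gaa, Glb1, Lamp1, Lgmn, Mcoln1 and Naglu. The longer palindrome TCACGTGA, which contains the hexamer, was in 5 of the 37 (13.5%) and in 1.12% of all genes. The full palindrome of the CLEAR element, which extends TCACGTGA by a G before and a C after it, was in 0 of the 37 and in 0.37% of all genes. A match describes the letters in the window and not a bound site.

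Per length, in TPM (reads per exon length, scaled to the library total), 4 genes dominated the set. Ctsd, Psap, Ctsb and Ctss together held 69.8% of the TPM of the 43 genes in M0 and 67.1% after IFNγ + LPS. Ctsd, an aspartic protease, led in M0 with 15969 ± 805 TPM (SD, n = 3), above Psap, the precursor of the saposins that activate sphingolipid hydrolases, with 7648 ± 302 TPM. After IFNγ + LPS the order was turned: Psap stood at 13204 ± 380.3 TPM and Ctsd at 6489 ± 198 TPM. Ctss, a protease of antigen presentation, was then at 5689.6 ± 187 TPM and Ctsb at 3713 ± 227 TPM. The lowest levels were those of Tfeb, 21.5 ± 1.63 TPM in M0, and Mcoln1, 21.4 ± 1.03 TPM, which did not differ beyond their spread.

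**Figure D1:**
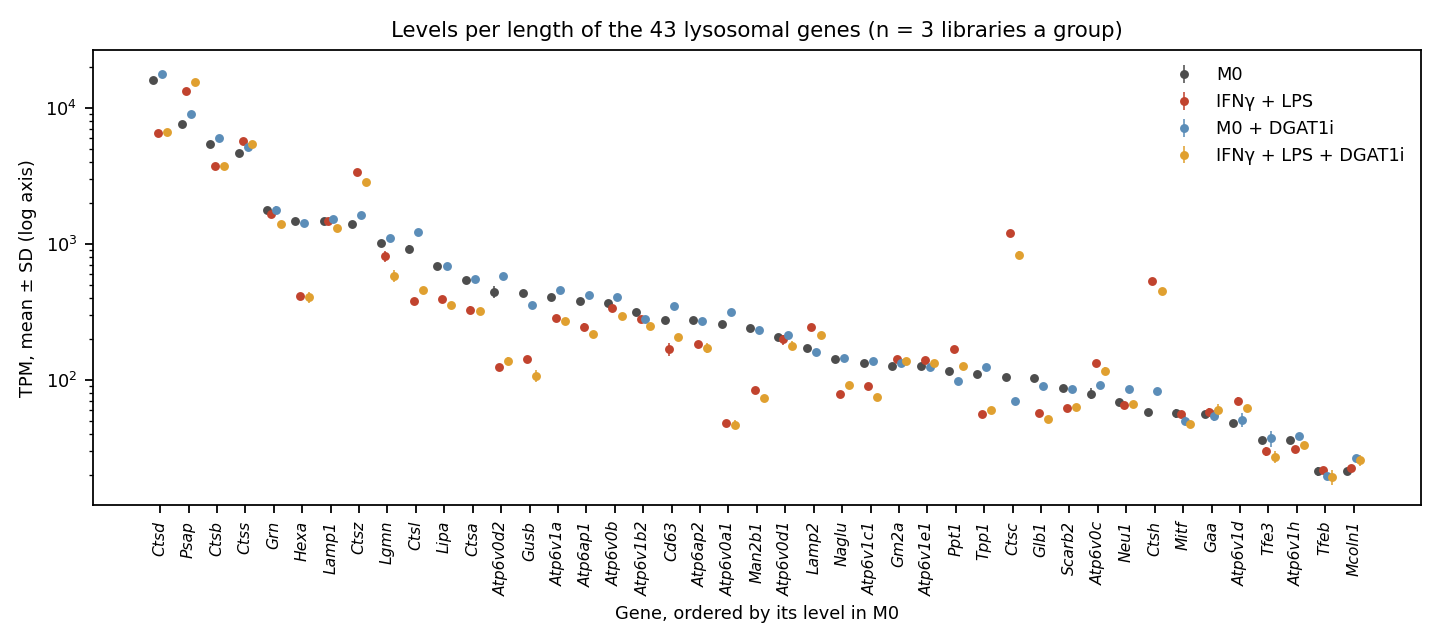
Level per length in TPM (mean ± SD of 3 libraries, log axis) of the 43 genes, ordered by M0, in the 4 groups. Ctsd leads in M0 at 15969 TPM and Psap after IFNγ + LPS at 13204 TPM, and Ctsc, Ctsh and Atp6v0a1 lie far apart between the resting and the stimulated groups.

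Activation changed most of the set, in both directions. With IFNγ + LPS, 22 genes rose and 17 fell against M0 by the quasi-likelihood test of edgeR, adjusted after Benjamini-Hochberg over the 11760 genes tested (adjusted p under 0.05), and 4 did not pass it. Of all genes tested, 73.3% passed, 37.1% higher and 36.2% lower, so a change as such was common in this comparison. The median log2 fold change of the 43 genes was 0.18, against 0.0064 over all genes. In 22 of the 43 every stimulated library lay above every M0 library, and in 19 every one lay below. Groups without overlap were found for 75.4% of all genes tested. These directions rest on TMM scaling: with library size only, the median of all genes shifted to -0.46 and the split became 10 higher and 26 lower. The share of library reads on the 43 genes was 5.55% to 6.03% in M0 and 4.69% to 4.89% after IFNγ + LPS, whereas their summed TMM-scaled level was 46826 to 50812 CPM and 54002 to 57814 CPM. The mitochondrial share of reads was 4.72% to 4.86% in M0 and 3.88% to 4.21% after IFNγ + LPS. Of the 9 macrophage markers, 3 were higher and 6 lower after IFNγ + LPS: Lyz2, the most abundant, went from a mean of 9641 to 2956 CPM, and the other 8 together from 4268 to 5784 CPM. The part of either in the result was not tested.

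The cathepsins split evenly, with 4 of 9 higher and 4 lower, where 37.1% of all genes tested were higher and 36.2% lower. Ctsc (ENSMUSG00000030560.17, chr7:88278085-88310888), the dipeptidyl peptidase that activates granule serine proteases, was at 189.6, 188 and 209.8 CPM in M0 and at 3041, 3025 and 2879.6 CPM after IFNγ + LPS. Ctsh (ENSMUSG00000032359.14, chr9:90054152-90076089), an aminopeptidase, was at 85.6, 84.8 and 84.0 CPM in M0 and at 1032, 1048 and 972 CPM after the stimulus. Ctsz (ENSMUSG00000016256.10, chr2:174427493-174439039), a carboxypeptidase, went from 659, 629.8 and 669.9 CPM to 2102, 2097 and 2063 CPM. In all 3 genes every stimulated library lay above every M0 library. The fitted rises on the log2 scale were 3.93 ± 0.06 (SE) for Ctsc, 3.59 ± 0.06 for Ctsh and 1.68 ± 0.05 for Ctsz, or 15.2-fold for Ctsc and 3.20-fold for Ctsz, with adjusted p of 1.01e-47, 1.09e-48 and 3.42e-35. Ctss also rose, by 0.70 ± 0.06 (log2, SE).

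The other cathepsins were lower. Ctsd and Ctsl, an endopeptidase of the lysosome, had log2 fold changes of -0.90 ± 0.06 and -0.88 ± 0.06 (SE). Ctsl went from 1946, 1780.1 and 2068 CPM to 1081, 1099 and 978 CPM, without overlap. Ctsa, the protective protein of the sialidase complex, changed by -0.34 and Ctsb by -0.15 on the log2 scale. Lgmn, the asparaginyl endopeptidase that processes cathepsins, did not pass the test, with a log2 fold change of 0.09 ± 0.06 and overlapping libraries. Summed over the 9 genes, levels were 27623 to 30486 CPM in M0 and 26894 to 28926 CPM after IFNγ + LPS, which overlapped. This overlap rests on TMM scaling: the 9 genes took 3.28% to 3.62% of reads in M0 and 2.33% to 2.44% after the stimulus, without overlap. The annotation has an antisense gene over 26.9% of the exon bases of Ctsl and a same-strand gene over 34.4% of those of Ctsd, as well as an antisense gene over 11.9% of those of the pump gene Atp6v0b. Protein-coding genes on the opposite strand cover 12.8% of those of Ctsb, 12.8% of those of Hexa and 10.5% of those of Ctsa. A transcribed pseudogene matches 28.6% of the longest transcript of Cd63. How the counting treated strand and shared reads is not given in the sources used here.

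All 12 hydrolases and activators changed with activation, 5 higher and 7 lower, or 3 and 8 with library size only. Of all genes tested, 73.3% changed, 37.1% higher and 36.2% lower. The 5 that rose were Psap (1.19 ± 0.05 log2), Ppt1, which removes palmitate from proteins (0.95 ± 0.05), Gm2a, the activator of ganglioside breakdown (0.59 ± 0.05), the glycogen-degrading Gaa (0.45 ± 0.07) and the sialidase Neu1 (0.33 ± 0.07). Hexa (ENSMUSG00000025232.7, chr9:59539540-59565109), an enzyme of ganglioside breakdown, was lower: 952, 909 and 961 CPM in M0 against 382, 341 and 335 CPM, a log2 fold change of -1.42 ± 0.06. Gusb, β-glucuronidase, was at 658, 640.0 and 616 CPM in M0 and at 269, 270.4 and 283 CPM after the stimulus. For both genes the groups lay far apart relative to the spread within them.

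The remaining hydrolases were lower by smaller amounts. Man2b1, the acid α-mannosidase, had a log2 fold change of -1.12, Tpp1, the tripeptidyl peptidase, of -0.59, and Naglu, which acts on heparan sulfate, of -0.45. Glb1, β-galactosidase, and Lipa, which hydrolyses cholesteryl esters and triglycerides in the lysosome, stood at -0.44 and -0.38. Lipa went from 1490.3 ± 27.3 to 1141 ± 16.4 CPM (SD, n = 3), and its groups did not overlap.

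Of the 6 membrane proteins and progranulin, 4 rose (37.1% of all genes tested did), but with library size only Lamp2 alone was called higher. They were the abundant glycoproteins Lamp2 (0.90 ± 0.05 log2) and Lamp1 (0.42 ± 0.05), the calcium channel of the lysosome Mcoln1 (0.49 ± 0.07), and Grn, which encodes progranulin (0.30 ± 0.05). Lamp1 and Grn were among the genes whose sign turned with library size only, as were Lgmn, Gaa, Neu1, Atp6v0b, Atp6v0d1, Atp6v1b2, Atp6v1h, Tfeb, Tfe3 and Mitf. The call of Mcoln1 was lost under that scaling (0.016). The tetraspanin Cd63 fell by 0.32 ± 0.06, from 333, 317 and 339 CPM to 248, 294 and 249 CPM. Scarb2, the receptor that carries β-glucocerebrosidase to the lysosome, did not pass the test (-0.10 ± 0.06).

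**Figure D2:**
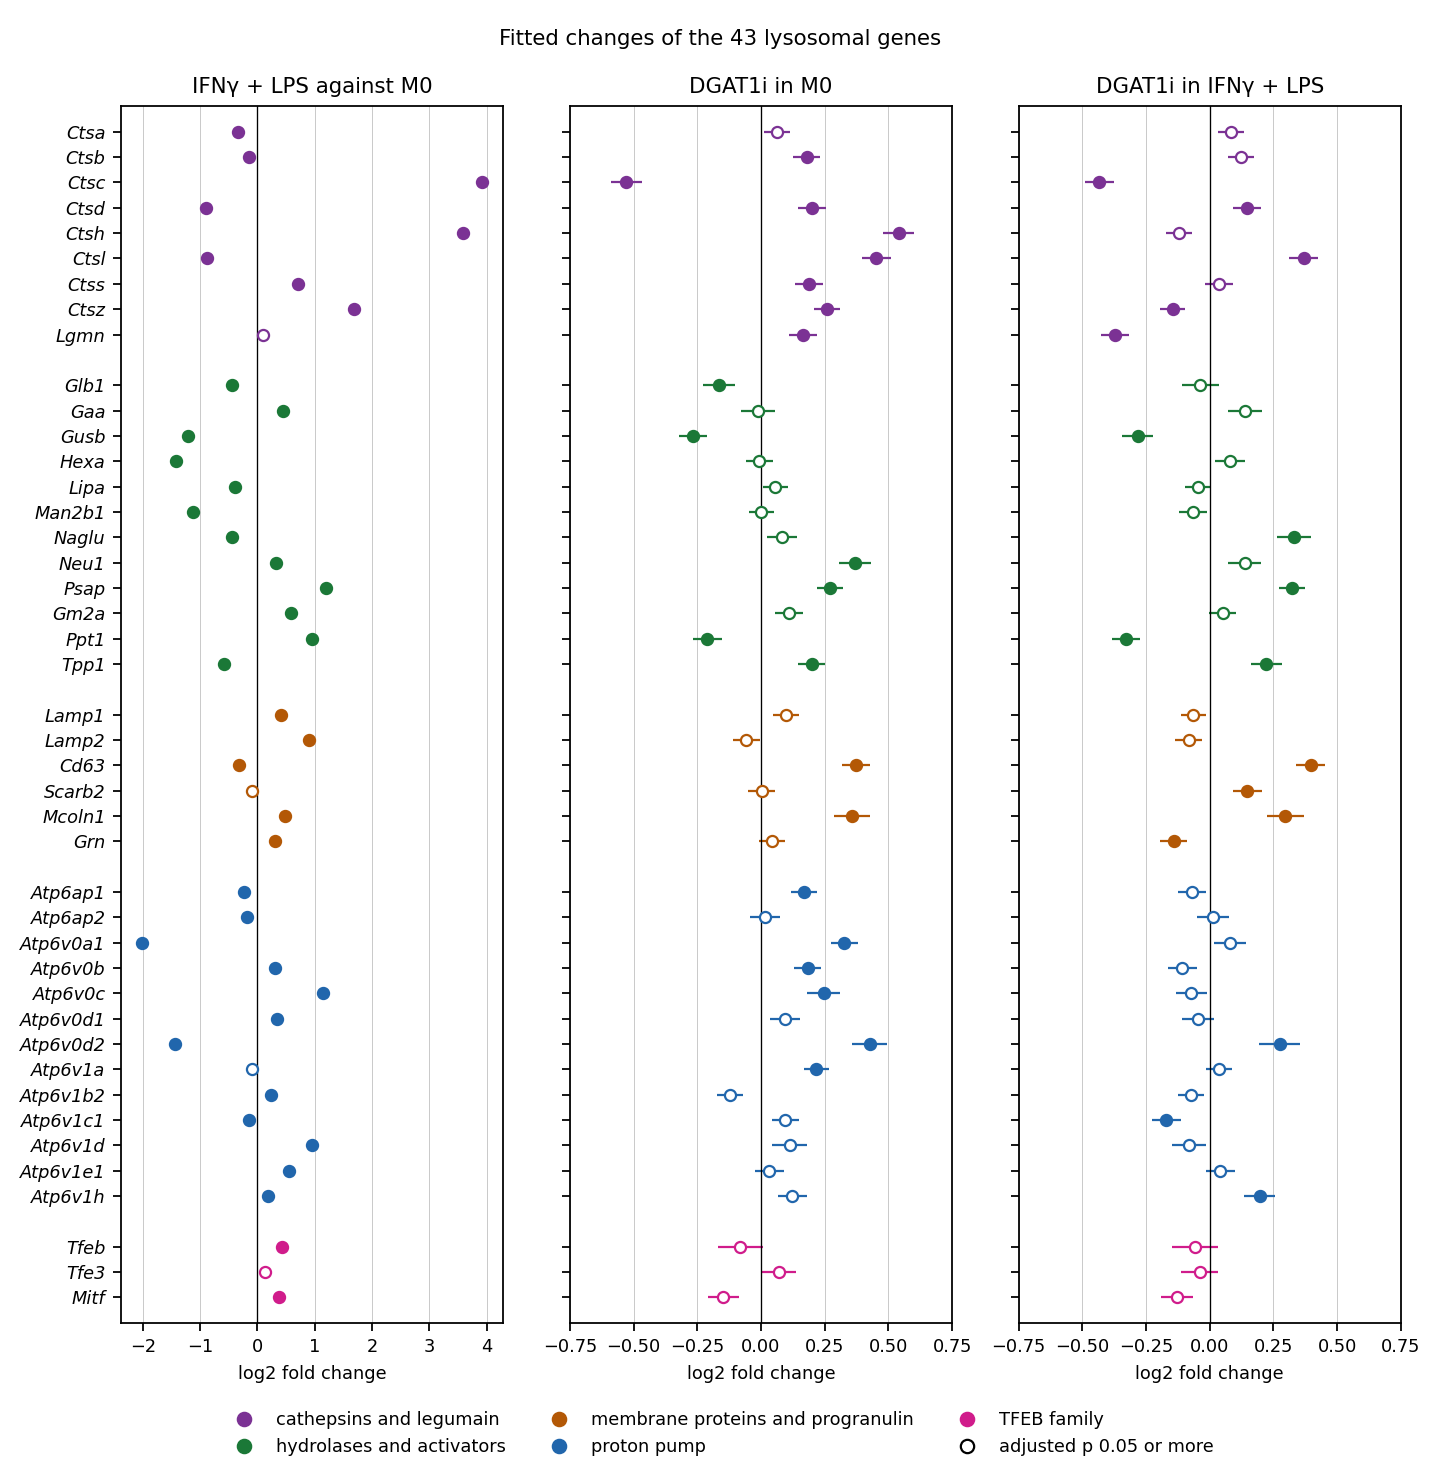
Fitted log2 fold change ± SE of each of the 43 genes in 3 comparisons, coloured by group, with open circles for adjusted p of 0.05 or more. The axis of the first panel is wider: Ctsc reaches 3.93 and Atp6v0a1 -2.02 with activation, while the changes with DGAT1i lie between -0.53 and 0.54.

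The proton pump changed most in the genes of 2 V0 subunits. Atp6v0a1 (ENSMUSG00000019302.16, chr11:101009452-101063719), 1 of 4 alternative genes for the membrane subunit a, was at 544, 517 and 570.5 CPM in M0 and at 127, 142 and 133 CPM after IFNγ + LPS, a log2 fold change of -2.02 ± 0.06 (adjusted p 4.99e-37). Atp6v0d2 (ENSMUSG00000028238.6, chr4:19876841-19922605), 1 of 2 genes for subunit d, went from 399.8, 341 and 421 CPM to 140.0, 153 and 136 CPM, or -1.43 ± 0.07. Its paralog Atp6v0d1, the broadly expressed form, was at 117, 122 and 118 CPM and then at 149, 166 and 140.5 CPM, or 0.35 ± 0.06. None of the 3 genes overlapped between the groups, and the paralogs of subunit d moved in opposite directions under TMM scaling. With library size only, Atp6v0d1 turned to -0.12, still far from the fall of Atp6v0d2.

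Shares within a subunit do not depend on the scaling of libraries. Per length, Atp6v0a1 made up 44.7% ± 0.898 (SD, n = 3) of the TPM of the subunit a genes in M0 and 8.03% ± 0.358 after IFNγ + LPS. Tcirg1, which encodes the a3 form used by osteoclasts and lysosomes, made up 50.9% in M0 and 85.0% after IFNγ + LPS, and its level rose by 1.20 ± 0.05 on the log2 scale of the fit. Atp6v0a2 held 4.39% and 6.98%, and Atp6v0a4 had 0 reads. In subunit d, Atp6v0d2 made up 68.1% ± 2.86 in M0 and 38.4% ± 0.579 after IFNγ + LPS, so that Atp6v0d1 became the more abundant form. No library of 1 group reached the range of the other for Atp6v0a1, Tcirg1 or Atp6v0d2. With 3 libraries against 3, an exact two-sided permutation test of such a share cannot go below 0.10, and none was run.

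**Figure D3:**
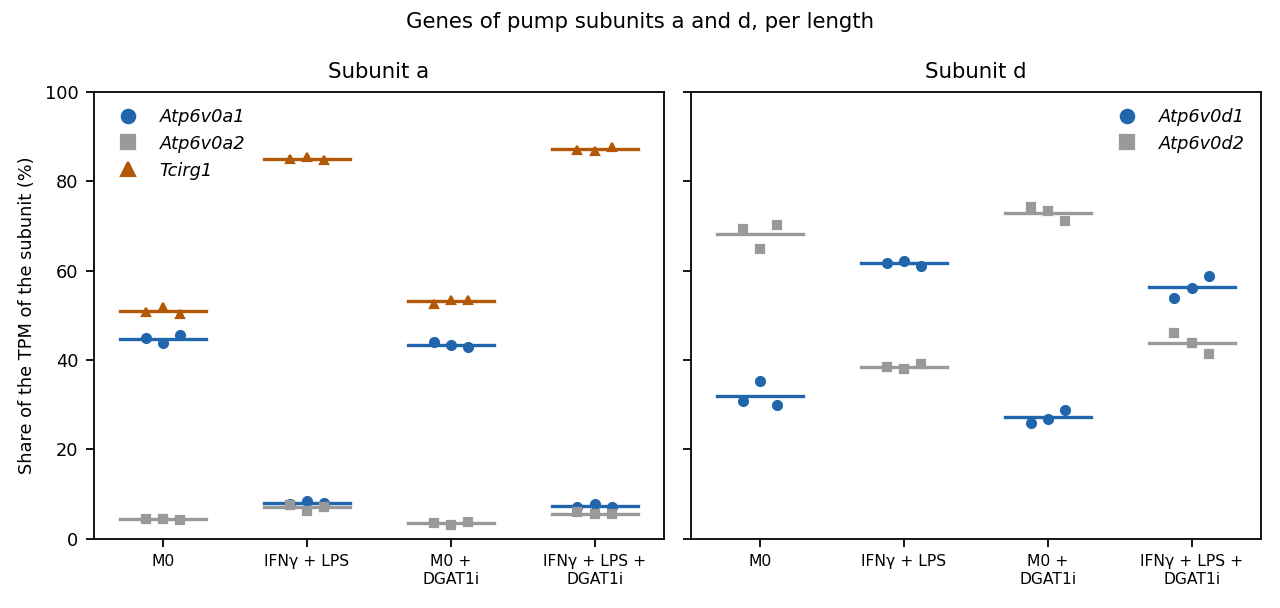
Share (%) of the TPM of subunit a and of subunit d held by each gene, per library (points) with group means (bars), in the 4 groups. Atp6v0a1 stands at 44.7% in M0 and 8.03% after IFNγ + LPS, and Atp6v0d1 and Atp6v0d2 change places in both stimulated groups.

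The other pump genes moved less. Atp6v0c, which encodes the proteolipid of the proton-carrying ring, rose by 1.14 ± 0.06 (log2), and Atp6v0b, another ring subunit, by 0.30 ± 0.06. In the V1 sector, Atp6v1d (0.94 ± 0.07), Atp6v1e1 (0.56 ± 0.06), Atp6v1b2, which carries nucleotide-binding residues (0.24 ± 0.05), and the regulatory Atp6v1h (0.18 ± 0.06) rose. With library size only the call of Atp6v1e1 was lost (0.085), and of the 13 pump genes 2 were higher and 9 lower, against 7 and 5 with TMM. Of all genes tested, 37.1% were higher and 36.2% lower with TMM. Atp6v1c1 was lower (-0.15), and the catalytic Atp6v1a did not pass the test (-0.10 ± 0.05). The groups of Atp6v1a did not overlap, at 760 CPM or more in M0 and 739 CPM or less after the stimulus. It was called lower under 5 alternatives, among them library size only and DESeq2. Both accessory genes, Atp6ap1 and Atp6ap2, were lower (-0.23 and -0.18). The summed level of the 13 genes was 3746 to 4042 CPM in M0 and 3457 to 3643 CPM after IFNγ + LPS. With the further pump subunits, which went from 791 to 815 CPM to 1512 to 1565 CPM, the pump summed to 4537 to 4858 CPM and then to 4969 to 5203 CPM. The direction of that sum turned with the scaling: as a share of reads the pump held 0.538% to 0.577% in M0 and 0.431% to 0.440% after IFNγ + LPS.

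The TFEB family was expressed at low levels and moved little. Tfeb was at 41.7, 39.6 and 36.2 CPM in M0 and 55.4, 49.1 and 53.6 CPM after IFNγ + LPS, a rise of 0.43 ± 0.09 (log2, SE). Mitf was at 114, 104 and 123 CPM and then at 149.7, 149.96 and 143 CPM, a rise of 0.37 ± 0.06, while Tfe3, at 106, 114 and 107 CPM and then 116, 129 and 112 CPM, did not pass the test. As stated, the sign of all 3 turned with library size only. The RNA level says nothing of whether these factors were in the nucleus.

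Leaving out single libraries ended 3 of the 39 calls of activation. Ctsb was lost without M0 replicate 3 (log2 fold change -0.11), IFNγ + LPS replicate 1 (-0.13) or IFNγ + LPS replicate 3 (-0.10), Atp6ap2 without M0 replicate 3 (-0.13), and Atp6v1c1 without IFNγ + LPS replicate 3 (-0.11).

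In resting macrophages, DGAT1i raised many of these genes by small amounts. With DGAT1i in M0, 18 of the 43 genes rose and 4 fell by the quasi-likelihood test of edgeR (Benjamini-Hochberg adjusted). Over all genes tested 24.4% passed, 11% higher and 13.4% lower, so the share of higher genes in the set (18 of 43) stood well above that of all genes and the share of lower genes (4 of 43) did not. The median log2 fold change was 0.10, against 0.0037 over all genes. Libraries did not overlap in 22 genes that were higher and 5 that were lower, as in 37.8% of all genes tested. The largest change was 0.54. With library size only, the split was 13 higher and 6 lower. The 43 genes took 6.19% to 6.51% of reads with DGAT1i and 5.55% to 6.03% without it. The share of reads on mitochondrial genes moved with the inhibitor too, from 4.72% to 4.86% without it to 5.56% to 6.19% with it. Of the 9 macrophage markers, 3 were called higher and 2 lower with DGAT1i in M0: Lyz2 went from a mean of 9641 to 13045 CPM, and the other 8 together were at 4268 and 4327 CPM. The part of either in the result was not tested.

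Cathepsins and V0 genes made up 11 of the 18 genes that rose with DGAT1i in M0. Of the 9 cathepsins and legumain, 7 rose and 1 fell, where 11% of all genes tested rose and 13.4% fell. Without M0 replicate 2, 4 rose, the calls of Ctsd (0.16), Ctss (0.13) and Lgmn (0.15) being lost, and with library size only 4 rose as well, without Ctsb (0.12), Ctss (0.13) and Lgmn (0.11). Ctsh was at 126, 131 and 113 CPM with DGAT1i, above the 85.6, 84.8 and 84.0 CPM of M0, a rise of 0.54 ± 0.06 (log2, SE). Ctsl, at 2644, 2681 and 2604 CPM, lay above all 3 M0 libraries and rose by 0.45 ± 0.06. The rises of Ctsz (0.26), Ctsd (0.20), Ctss (0.19), Ctsb (0.18) and Lgmn (0.17) were smaller, and Ctsa did not pass the test (0.06 ± 0.05). Ctsc alone among them fell: its libraries were at 146, 129 and 132 CPM, below the lowest M0 library at 188 CPM, a fall of 0.53 ± 0.06.

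With DGAT1i in M0, 4 of the 5 V0 genes, 1 of 6 V1 genes and 1 of 2 accessory genes rose, where 11% of all genes tested did. The sectors were not tested against each other, and the calls of Atp6v0b (0.12) and Atp6ap1 (0.11) were lost with library size only. Atp6v0d2 was at 555, 533 and 473 CPM with the inhibitor, above the highest M0 library at 421 CPM, a rise of 0.43 ± 0.07 (log2, SE). Atp6v0a1 was at 696, 681 and 670.4 CPM, above the highest M0 library at 570.5 CPM, and rose by 0.33 ± 0.05. Atp6v0c (0.25), Atp6v1a (0.22), Atp6v0b (0.18) and Atp6ap1 (0.17) also rose. No pump gene passed the test as lower, but Atp6v1b2, at 542, 523 and 546 CPM in M0 and 505, 482 and 494 CPM with DGAT1i, did not overlap (-0.12, adjusted p 0.0663 by edgeR), and it was called lower under 5 alternatives, among them library size only (-0.18) and DESeq2 (-0.14). Atp6v0d1, at 128, 128 and 127 CPM, did not pass the test (0.09 ± 0.06). The 5 markers of osteoclasts, a cell type in which Atp6v0d2 is high, summed to 16.3 to 20.6 CPM in M0 and 8.45 to 12.5 CPM with DGAT1i. Of the 3 tested, Mmp9 was lower and the other two did not pass the test, and Calcr had 1 read over all 12 libraries. Outside this list, Ctsk and Tcirg1, which osteoclasts also express highly, rose by 0.61 and 0.43, Ctsk from a low mean of 5.75 to 8.87 CPM. Acp5, another such gene, was at means of 4.80 CPM in M0 and 5.13 CPM with DGAT1i. The part of such cells in the result was not tested.

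Of the 12 hydrolases and activators, 3 rose and 3 fell with DGAT1i in M0. Of the 6 membrane proteins and progranulin, 2 rose and 0 fell, where 11% of all genes tested rose and 13.4% fell. Neu1 (0.37), Psap (0.27) and Tpp1 (0.20) rose with DGAT1i on the log2 scale, and Gusb, Ppt1 and Glb1 were lower (-0.27, -0.21 and -0.17). Gusb was at 559, 513 and 520.2 CPM, below the lowest M0 library at 616 CPM, and Ppt1 was at 123, 118 and 115 CPM, below 129 CPM. Cd63, at 444, 431 and 405 CPM against at most 339 CPM in M0, rose by 0.37 ± 0.05, and Mcoln1 by 0.36 ± 0.07. Gaa, Hexa, Lipa, Man2b1, Naglu, Gm2a, Lamp1, Lamp2, Scarb2, Grn and the remaining pump genes lay between -0.12 and 0.12 and did not pass the test. Nor did the TFEB family: Tfeb was at 38.9, 34.9 and 37.1 CPM, Tfe3 at 107, 108 and 128 CPM, and Mitf at 97.2, 109 and 102 CPM. Mitf, at -0.15 (adjusted p 0.0726 by edgeR), was called lower with RLE size factors (-0.17), with library size only (-0.21), at a threshold of 0.1, and without replicate 2 of M0 (-0.21) or of M0 with DGAT1i (-0.19).

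Of these 22 calls, 15 held without any 1 library. Without M0 replicate 2 the count was 18, and Ctsd (0.16), Ctss (0.13), Lgmn (0.15), Tpp1 (0.16) and Atp6v0b (0.15) were lost and Mitf was gained. Single libraries of M0 with DGAT1i also ended calls: replicate 1 those of Ctsd (0.14) and Atp6v0b (0.16), replicate 2 those of Ctss (0.16), Lgmn (0.16) and Atp6v0b (0.17), and replicate 3 those of Lgmn (0.15) and Atp6ap1 (0.15). Glb1 was lost without M0 replicate 1 (-0.16) or 3 (-0.14) and without replicate 1 (-0.18), 2 (-0.14) or 3 (-0.18) of M0 with DGAT1i. Other settings ended 6 calls, those of Ctsb, Ctss, Lgmn, Atp6ap1, Atp6v0b and Glb1. In all, 14 of the 22 held under every setting and without any 1 library.

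**Figure D4:**
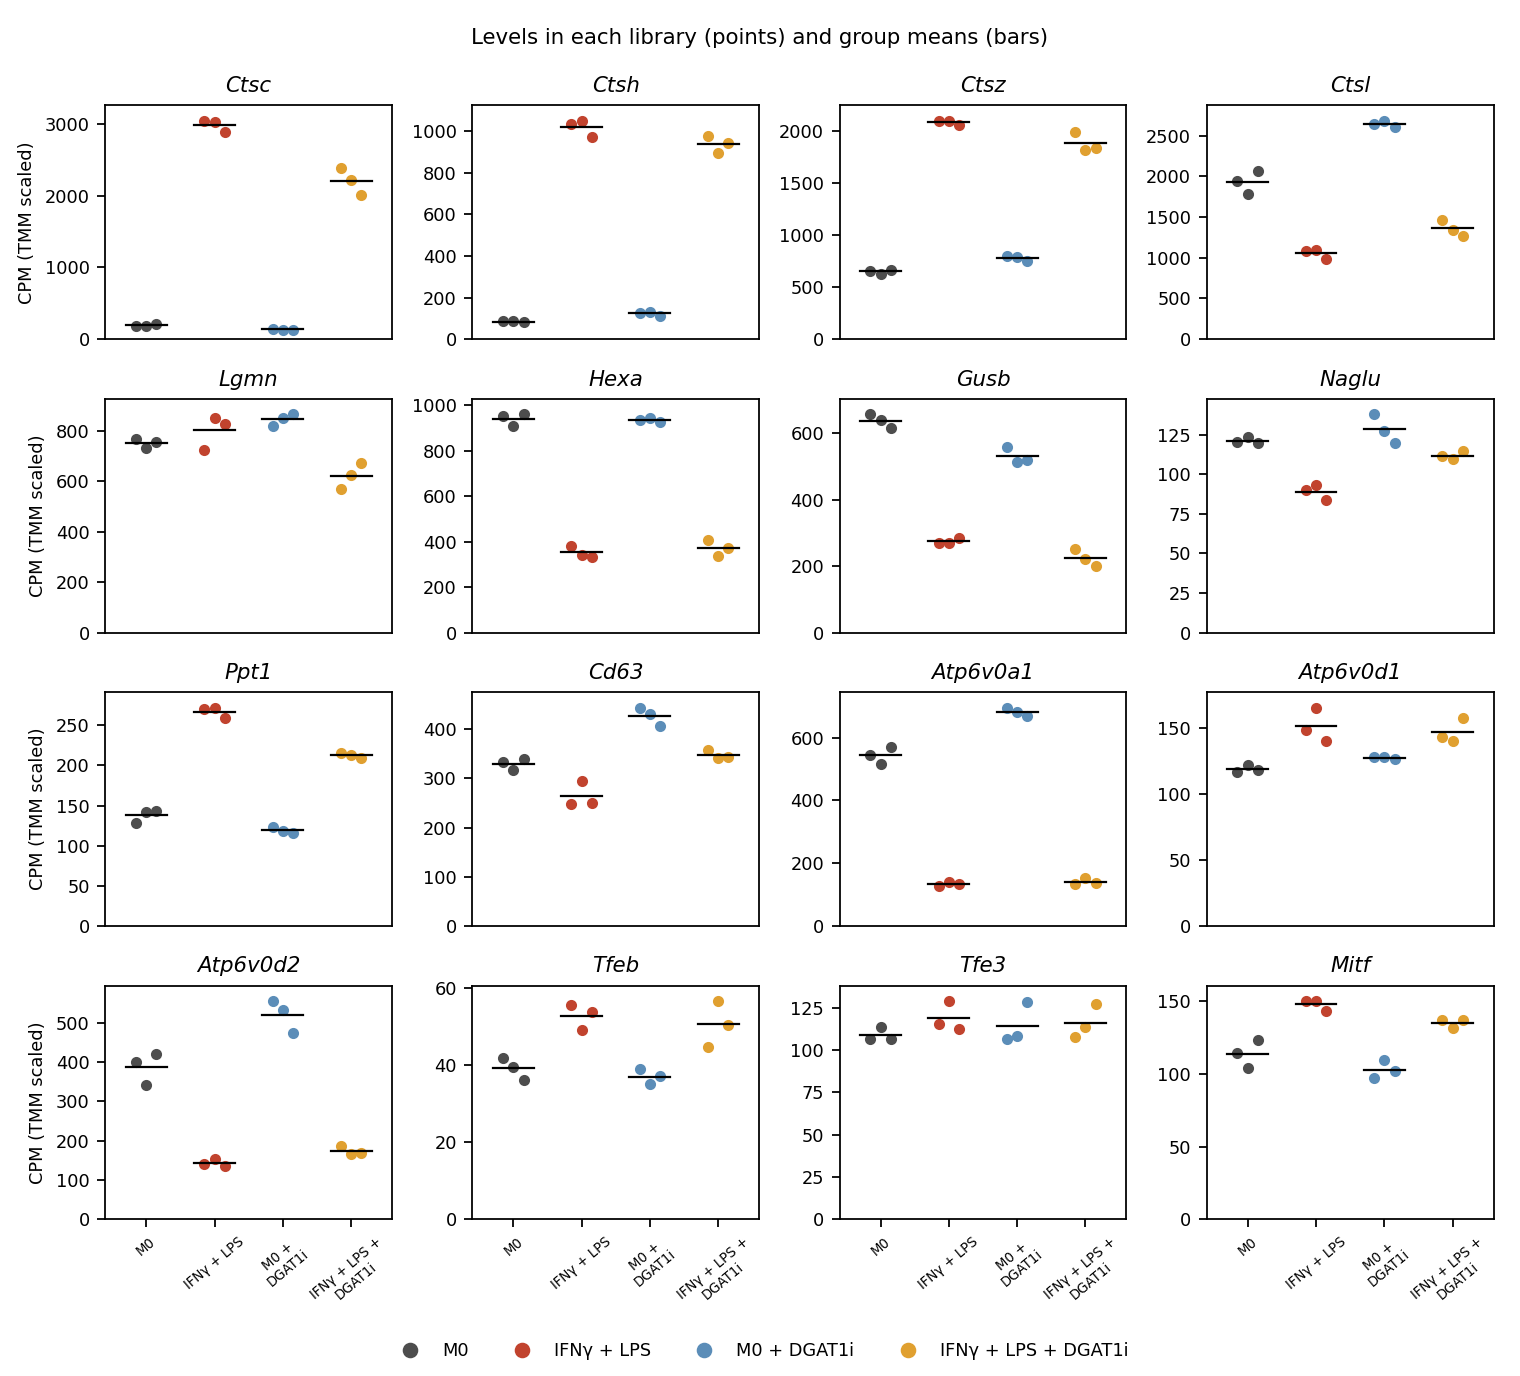
Level in TMM-scaled CPM of 16 genes in each of the 12 libraries (points) with the group mean (bar); every axis starts at 0. Ctsc, Ctsh and Ctsz are high in both stimulated groups, Atp6v0a1 and Atp6v0d2 in both resting groups, and Lgmn is lowest after IFNγ + LPS with DGAT1i.

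In inflammatory macrophages, DGAT1i changed 17 of the 43 genes, 10 higher and 7 lower, by the quasi-likelihood test of edgeR (Benjamini-Hochberg adjusted). Over all genes tested 29.8% passed, 13.5% higher and 16.3% lower, so the share of lower genes in the set equalled that of all genes and the share of higher genes lay above it. The median log2 fold change was -0.038, against -0.012 over all genes. Libraries did not overlap in 12 genes that were higher and 8 that were lower, as in 39.7% of all genes tested. Without a filter on low counts the split was 7 higher and 8 lower. The mitochondrial share of reads was 3.88% to 4.21% without and 4.52% to 5.32% with the inhibitor. All 4 tested neutrophil markers rose in this comparison, within the summed levels given above, while Ly6g stayed at 0. Of the 9 macrophage markers, 1 was called higher and 3 lower. The 4 dendritic cell markers summed to 5.62 to 7.16 CPM without and 1.04 to 1.40 CPM with DGAT1i, and Xcr1, the only 1 tested, was lower (-2.65). Of the 8 genes of the IFNγ and LPS response, 6 were lower and 1 higher with DGAT1i, with a median log2 fold change of -0.58, and their summed levels did not overlap. The part of any of these in the result was not tested.

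The genes that rose did so by at most 0.40 on the log2 scale. Cd63 was at 357, 341 and 343 CPM with DGAT1i against 248, 294 and 249 CPM without, a rise of 0.40 ± 0.06 (SE). Ctsl, at 1462, 1345 and 1271 CPM against at most 1099 CPM, rose by 0.37 ± 0.06. Naglu, at 111, 109 and 115 CPM against 90.1, 93.1 and 83.5 CPM, rose by 0.33 ± 0.07. None of the 3 overlapped. Psap (0.32), Mcoln1 (0.30), Atp6v0d2 (0.27), Tpp1 (0.22), Atp6v1h (0.20), Ctsd (0.15) and Scarb2 (0.15) also rose. Ctsb did not pass the test (0.12), but its groups did not overlap, at most 10172 CPM without and at least 10202 CPM with DGAT1i. It was called higher with DESeq2, at a threshold of 0.1 and with only the libraries compared. Psap, already the most abundant of the set, reached 19294 ± 466 CPM (SD, n = 3) from 15415 ± 441 CPM.

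Among the genes that fell were Ctsc, Lgmn and Ppt1. Ctsc was at 2389.7, 2222 and 2013 CPM with DGAT1i, below the lowest library without it at 2879.6 CPM, and fell by 0.43 ± 0.06. Lgmn went from 726, 853 and 829 CPM to 568, 623 and 672 CPM and fell by 0.37 ± 0.06. Ppt1, at 216, 212 and 209.7 CPM against 259 CPM or more, fell by 0.33 ± 0.05. The groups did not overlap in any of the 3. Gusb, at 253, 221 and 202 CPM against 269 CPM or more, had -0.28 ± 0.06, and Atp6v1c1, Ctsz and Grn had -0.17, -0.15 and -0.14. Ctsz was at 1998, 1816 and 1845 CPM with DGAT1i, all below the 2063 CPM of the lowest library without it.

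Of the 13 pump genes, 2 rose and 1 fell with DGAT1i in inflammatory macrophages, where 13.5% of all genes tested rose and 16.3% fell. The summed level of the 13 was 3457 to 3643 CPM without and 3461 to 3605 CPM with the inhibitor. The further pump subunits, Tcirg1 among them (0.25), summed to 1512 to 1565 CPM without and 1743 to 1753 CPM with it, so that these did not overlap. Atp6v0a1 stayed low, at 135, 154 and 136 CPM (0.08 ± 0.06), and its share of subunit a was 7.29% ± 0.442. Atp6v0d2, at 186, 165 and 168 CPM, was still below the M0 libraries, and its share of subunit d was 43.7% ± 2.39. Atp6v0d1 was at 144, 140.0 and 158 CPM and Hexa at 408, 337 and 371 CPM, neither past the test. Of the TFEB family, Tfeb was at 44.7, 56.5 and 50.4 CPM, Tfe3 at 107, 113 and 127 CPM and Mitf at 137, 131 and 137 CPM, and none passed it.

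Of these 17 calls, 11 held without any 1 library, and the count ranged from 13 to 17. Ctsz was lost without IFNγ + LPS replicate 1 (-0.15) and without replicate 2 (-0.12) or 3 (-0.13) of the group with DGAT1i. Atp6v0d2 was lost without IFNγ + LPS replicate 3 (0.24) or replicate 1 of the group with DGAT1i (0.22). Atp6v1c1 was lost without IFNγ + LPS replicate 2 (-0.15) and without replicate 2 (-0.16) or 3 (-0.16) with DGAT1i, and Grn without IFNγ + LPS replicate 2 (-0.09) and without replicate 1 (-0.14), 2 (-0.15) or 3 (-0.15) with DGAT1i. The call of Ctsd was lost without 7 of the 12 libraries in turn, with values down to 0.10, and that of Scarb2 without 8, with values down to 0.12. Other settings ended 4 calls. Without a filter on low counts Ctsd (0.11), Scarb2 (0.11) and Atp6v1h (0.16) were lost, with DESeq2 Ctsd (0.14) and Scarb2 (0.14), with library size only or a mean CPM of 1 Scarb2 (0.14 in both), and with only the libraries compared Grn (-0.12).

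The response to DGAT1i was compared between the resting and the inflammatory state. No library is shared between these 2 responses. Both called 7 genes higher (Atp6v0d2, Cd63, Ctsd, Ctsl, Mcoln1, Psap and Tpp1) and 3 lower (Ctsc, Gusb and Ppt1), and 16 genes passed in neither. Of all genes tested, 3.69% were higher in both, 3.75% lower in both, and 55.6% passed in neither. Ctsz and Lgmn rose in M0 and fell after IFNγ + LPS, as did 1.28% of all genes. Across the 43 genes, which are not independent, Pearson's r was 0.589 and Spearman's rho 0.441, and 27 had the same sign.

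Tested directly, the response differed in 9 of the 43 genes by the quasi-likelihood test of edgeR (Benjamini-Hochberg adjusted), and in 18.5% of all genes (8.66% higher and 9.8% lower). In 8 of the 9 the response after IFNγ + LPS was below that in M0. The largest differences were in proteases: Ctsh at -0.66 ± 0.08 (log2, SE), Lgmn at -0.54 ± 0.08 and Ctsz at -0.41 ± 0.07, with adjusted p of 4.90e-09, 9.11e-07 and 2.39e-05. Ctsh rose in M0 but had -0.12 ± 0.05 after IFNγ + LPS, where its libraries, at 973, 892 and 942 CPM with DGAT1i, overlapped those without it (972 CPM or more). That fall did not pass the test, but was called with library size only, without a filter, at a threshold of 0.1 and on leaving out either of 2 libraries. The other 5 lower ones were pump genes, 5 of 13: Atp6v0c, Atp6v0b, Atp6v1c1, Atp6v0a1 and Atp6ap1, between -0.32 and -0.24. Of these, 3 were left without IFNγ + LPS replicate 2, where Atp6v0a1 (-0.21) and Atp6ap1 (-0.19) were lost, and with library size only, where the same genes were lost (-0.20 and -0.19). Atp6v1a (-0.18) did not pass, but was called lower with DESeq2 and at a threshold of 0.1. Naglu was the only 1 with a larger response after IFNγ + LPS, 0.25 ± 0.09 (adjusted p 0.0440). Its call was lost without most single libraries and under other settings, as given below. No gene of the membrane proteins or the TFEB family differed past the threshold.

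**Figure D5:**
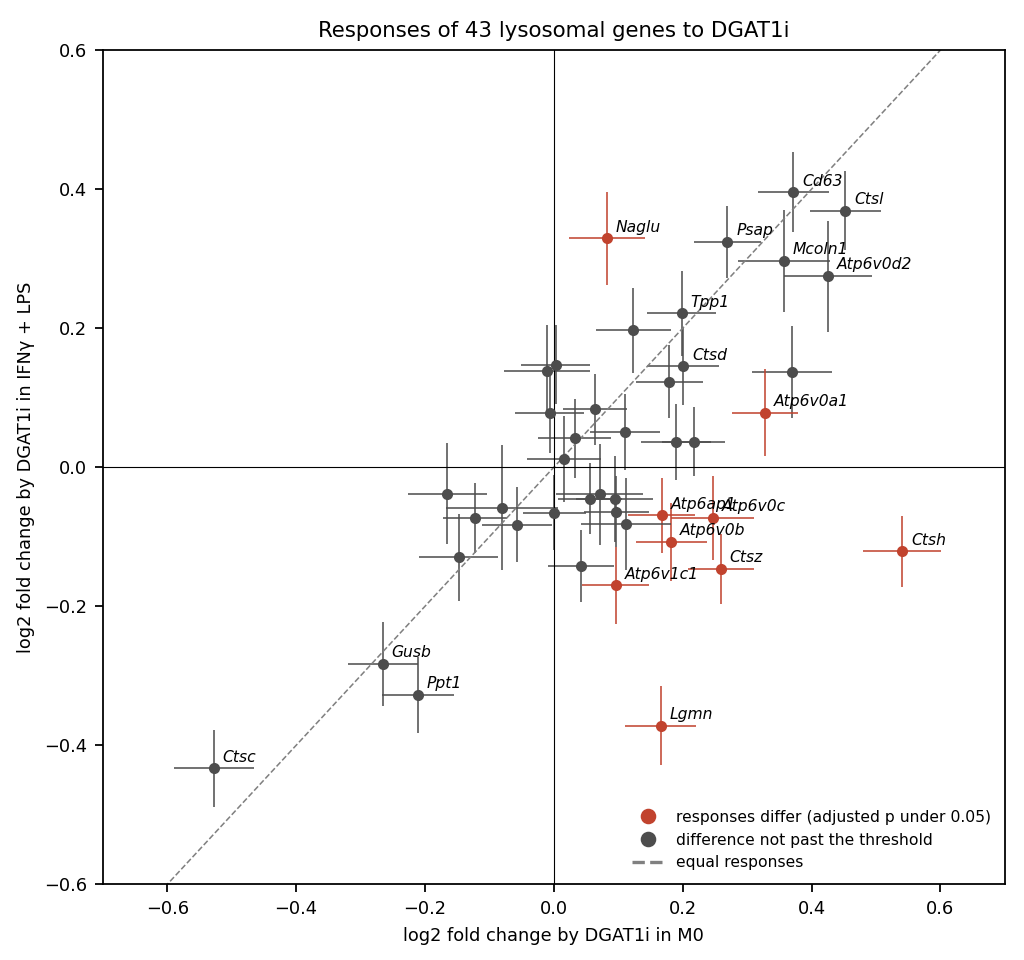
Log2 fold change ± SE with DGAT1i after IFNγ + LPS against that in M0 for the 43 genes, with the line of equal responses; genes whose responses differ (adjusted p under 0.05) are red. Ctsh, Lgmn, Ctsz and 5 pump genes lie below the line and Naglu above it.

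In the 12 genes with CACGTG in the window, the median log2 fold change with DGAT1i in M0 was 0.13, with 6 higher and 1 lower, and in the 25 with a window but no hexamer it was 0.06, with 9 higher and 3 lower. Of all genes tested, 11% were higher and 13.4% lower in this comparison. With DGAT1i after IFNγ + LPS the medians were 0.06 and -0.05, and with activation -0.0046 and 0.33. Lamp1, with 4 copies, did not pass the test with DGAT1i in either state (0.10 and -0.06), while Mcoln1 rose in both. These are descriptions, without a test.

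Other lysosomal genes, in lists drawn up with results of these data known, were mixed with activation as well, where 37.1% of all genes tested were higher and 36.2% lower. These directions use TMM scaling. The alternative settings were run for the 43 genes only, so how the other lists depend on scaling was not tested. Of 36 other enzymes, 17 rose and 12 fell with IFNγ + LPS, from Plbd1, a phospholipase B-like protein (6.61 ± 0.30 log2), to the arylsulfatase Arsb (-2.14 ± 0.13). Of 20 other membrane proteins 10 rose and 6 fell, led by the transporter Slc15a3 (3.03 ± 0.06) and the channel Tpcn1 (-2.90 ± 0.10). Of 9 genes of mannose 6-phosphate sorting 2 rose and 6 fell: the receptor M6pr rose by 1.46 ± 0.05 and the sorting receptor Sort1 had -4.47 ± 0.12. Of 6 tested further pump subunits 4 rose and none fell. Of 3 tested cathepsin inhibitors 2 rose, led by Cst7 (7.93 ± 0.20), and Cst3 was lower (-0.17 ± 0.05).

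With DGAT1i in M0, 12 of the 36 other enzymes rose and 4 fell, 7 and 3 of the 20 membrane proteins, 2 and 0 of the 6 pump subunits, and 3 and 0 of the 9 sorting genes, against 11% higher and 13.4% lower over all genes tested. Ctsk (0.61 ± 0.19) and Slc15a3 (0.52 ± 0.06) led the rises, and the largest fall of the membrane proteins was that of Tpcn1 (-0.31 ± 0.07). Tcirg1 rose by 0.43 ± 0.05, Gnptab, which helps to build the sorting tag, by 0.48 ± 0.05, and Cst3 was lower (-0.14 ± 0.05).

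With DGAT1i after IFNγ + LPS the numbers were 10 and 9, 4 and 5, 1 and 0, and 1 and 4, against 13.5% higher and 16.3% lower over all genes tested. Among the genes past the test, the extremes were Acp5 (0.71 ± 0.10) and Plbd1 (-1.81 ± 0.17) among the enzymes, Cd68 (0.48 ± 0.05) and Laptm4a (-0.35 ± 0.05) in the membrane, and Sort1 (1.34 ± 0.19) and Nagpa (-0.36 ± 0.09) in sorting, while Tcirg1 rose by 0.25 ± 0.05. No cathepsin inhibitor passed. The responses to DGAT1i differed between the states in 10 of the 36 enzymes, 2 higher and 8 lower, against 18.5% of all genes tested, with Acp2 the lowest (-0.87 ± 0.08).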

How the data were processed

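RNA sequencing libraries of 12 samples in 4 groups were analysed. The authors deposited a table of raw read counts per gene, without normalization, whose submitters' processing notes name GRCm38 and DESeq2; which aligner and counter were used, and with what strand setting, is not given in the sources used here. The labels name a NEBNext kit and the paper a stranded TruSeq kit, and the labels of 2 M0 libraries with DGAT1i write another number for the compound, which was read as T863. Of 47937 identifiers, 47310 matched GENCODE M21 (GRCm38) without their version.

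The count model was edgeR 4.0.16 in R 4.3.3 (filterByExpr, TMM, glmQLFit robust with 1 mean per group over all 12 libraries, Benjamini-Hochberg over 11760 genes, threshold 0.05). Standard errors were the log2 fold change over the root of F. TPM used the union of exon bases. The method was tested on simulated data with 200 changed genes, of which 150 were found for activation, 149 and 157 for DGAT1i after IFNγ + LPS and in M0, and 126 for the difference, with 9, 15, 6 and 11 false calls. Replicates differed by more than sampling noise, with a chi-square per gene of 1.93 to 4.06. The depth (216 to 112766 reads for these genes in a library) covers counting error only.

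The genes and lists were chosen with earlier results of these data known. Values in every library are given for the 3 largest changes in each direction per comparison, the TFEB family and both subunit d genes. Alternatives were RLE size factors, library size only, no filter or a mean CPM of 1, DESeq2 1.42.0, a threshold of 0.1, fits of only the 6 libraries compared, a replicate block and leaving out each library. Overlaps came from the annotation, copies from BLAST 2.17.0, and figures from matplotlib 3.10.9. The values of 1 gene of the other lists are not reported here.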

Additional observations from a re-analysis of the deposited data

Results flagged for a closer look

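In 9 of the 43 genes the response to DGAT1i differed between M0 and IFNγ + LPS by the test of the difference itself (edgeR quasi-likelihood, Benjamini-Hochberg adjusted). Of all genes tested, 18.5% differed, so the count lay near that share. On the log2 scale, response after IFNγ + LPS minus response in M0, the differences were -0.66 for Ctsh, -0.54 for Lgmn, -0.41 for Ctsz, -0.32 for Atp6v0c (adjusted p 0.00641), -0.29 for Atp6v0b (0.00519), -0.27 for Atp6v1c1 (0.00849), -0.25 for Atp6v0a1 (0.0228), -0.24 for Atp6ap1 (0.0187) and 0.25 for Naglu (0.0440). In M0, DGAT1i moved Atp6v0c from 86.8 ± 8.29 to 103 ± 4.29 CPM (SD, n = 3) and Atp6v0b from 242 ± 11.6 to 275 ± 14.3 CPM, whereas after IFNγ + LPS they were at 191 ± 9.16 and 182 ± 8.43 CPM, and at 298 ± 17.0 and 277 ± 12.6 CPM.

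Of the 9, 6 held without any 1 library. Naglu was lost without 10 of the 12 libraries in turn (0.20 to 0.26), with DESeq2 (0.26) and without a filter (0.21). Atp6v0a1 was lost without M0 replicate 2 (-0.22), IFNγ + LPS replicate 2 (-0.21), or replicate 1 (-0.22) or 3 (-0.23) of IFNγ + LPS with DGAT1i, and Atp6ap1 without IFNγ + LPS replicate 2 (-0.19) or replicate 2 with DGAT1i (-0.21). The mitochondrial share of reads and, after IFNγ + LPS, the neutrophil markers moved with DGAT1i as given above, and their part in the result was not tested.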

How the results depend on the processing

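The number of genes changed stayed within 1.5 times under every alternative: 36 to 41 for activation (39 as reported), 15 to 19 for DGAT1i after IFNγ + LPS (17), 19 to 24 for DGAT1i in M0 (22) and 7 to 12 for the difference (9). Leaving out each library gave 37 to 40, 13 to 17, 18 to 22 and 7 to 10. DESeq2 called 40, 16, 21 and 9. Scaling by library size only turned 12 values of activation: Lgmn -0.38, Tfe3 -0.34, Atp6v1h -0.29, Atp6v1b2 -0.23, Atp6v0b -0.17, Grn -0.17, Neu1 -0.14, Atp6v0d1 -0.12, Mitf -0.095, Lamp1 -0.051, Tfeb -0.043 and Gaa -0.020 on the log2 scale, and 27 of the 39 calls were kept; TMM factors were 1.19 on average in M0 and 0.860 after IFNγ + LPS. With the replicate number as a block the counts were 39, 17, 22 and 9, and no call changed. Same-numbered libraries deviated together with r of -0.0217 to 0.0687, 0 of 18 pairs above 0.1. This shows no large effect shared by replicate number, but cannot tell whether equal numbers share an animal or culture. Fits of only the 6 libraries compared gave 40, 17 and 23, with no such fit for the difference. Depth limits Tfeb most, with 216 to 297 reads in a library.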

Other observations

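Genes that act beside the lysosome moved as well, in lists drawn up with results of these data known. The alternative settings were not run for these lists, so how their directions with activation depend on TMM scaling was not tested. Of 19 autophagy genes, 12 rose and 4 fell with IFNγ + LPS by the quasi-likelihood test of edgeR (Benjamini-Hochberg adjusted), where 73.3% of all genes changed. Sqstm1, the receptor p62, rose by 2.78 ± 0.06 (log2, SE), and Wipi1, which binds phosphoinositides on the forming autophagosome, had -0.96 ± 0.14. With DGAT1i in M0, 6 of the 19 rose and none fell, where 24.4% of all genes changed, led by Sqstm1 (0.37 ± 0.05). With DGAT1i after IFNγ + LPS, 7 rose and 2 fell, where 29.8% of all genes changed, from Wipi1 (1.096 ± 0.15) to Uvrag (-0.29 ± 0.07). The difference between the responses passed the test in 9 of them and in 18.5% of all genes, and was largest for Wipi1 (1.23 ± 0.19).

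Of 16 genes that control mTORC1 and TFEB at the lysosome, 3 rose and 6 fell with activation (73.3% of all genes changed), from Fnip2 (1.04 ± 0.06) to Rragb (-2.63 ± 0.56). Rragd, a Rag GTPase, rose by 0.49 ± 0.12 with DGAT1i in M0 and had -0.70 ± 0.17 with DGAT1i after IFNγ + LPS, a difference of -1.19 ± 0.21 (adjusted p 2.6e-05). In all, 4 genes of the list rose and 1 fell with DGAT1i in M0 (24.4% of all genes changed), and 2 rose and 5 fell after IFNγ + LPS (29.8% of all genes).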
